A study of Mus musculus with 60 samples.

Results

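Metallothionein and zinc-control genes, Mt1, Mt2, Mtf1 and Slc30a1, were followed through fat-cell differentiation of mouse C3H10T1/2 cells, an established mesenchymal line that can be turned into adipocytes. The 4 genes were taken by symbol from 24982 genes in each of 2 deposited expression tables, and all 4 were present in both. The group was selected on the measured level of Mt2, which was known to be low in Tet1-KO against WT libraries, so the values of these 4 genes in Tet1-KO against WT are given as a description, with no test. Every value is in FPKM, fragments per kilobase of transcript scaled to the mapped fragments of the library.

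The first table holds Tet1-KO and WT cells, 24 libraries. The second holds the populations labelled 23-Tet1, 23-CATA and 23-NC, 36 libraries. Each population was sampled at days 0, 2, 4 and 6 with 3 libraries per group, 20 groups and 60 libraries in all. All cells received dexamethasone, isobutylmethylxanthine (IBMX), insulin, rosiglitazone and T3 for 48 h from day 0 and insulin alone afterwards, so day 0 is the uninduced state of each population. The labels do not say how Tet1 was disrupted, whether Tet1-KO is 1 clone, what 23-NC, 23-Tet1 and 23-CATA stand for, or whether replicates came from separate cultures. The p-values therefore measure the spread between these libraries, which may be technical. Groups follow the sample titles; the genotype tag of 11 of the 12 23-Tet1 samples differs from its title.

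Tet1, the methylcytosine dioxygenase that starts DNA demethylation, averaged 0.25 ± 0.01 FPKM in Tet1-KO cells and 1.01 ± 0.121 FPKM in WT cells at day 0 (SD, n = 3 each). From day 2 on it was at 0.11 FPKM or less in every library of both, so it checks the labels at day 0 alone. It reached 4.04 to 7.46 FPKM in 23-Tet1 and 5.75 to 21.56 FPKM in 23-CATA, against 0 to 0.12 FPKM in 23-NC. All 7 mesenchymal markers reached 1 FPKM in both tables, and endothelial and liver markers stayed at 1.86 FPKM or less. Of 3 epithelial markers, Krt14 had 8.12, 9.42 and 9.92 FPKM and Cdh1 2.92, 2.73 and 2.8 FPKM in 23-Tet1 at day 0, against 1.65, 1.43 and 1.12 FPKM for Cdh1 in 23-NC. Of 4 haematopoietic markers 3 stayed under 1 FPKM, and Lyz2, lysozyme, had 34.5, 38.5 and 43.8 FPKM in Tet1-KO at day 0, against 2.62, 3.86 and 3.13 FPKM in WT. The part of these markers in the metallothionein results was not tested. The summed level of 5 adipocyte markers (Adipoq, Fabp4, Plin1, Cebpa, Pparg) at day 6 was 28271 to 33618 FPKM in Tet1-KO against 58616 to 62754 FPKM in WT, 46917 to 54726 FPKM in 23-Tet1, and 51269 to 52574 FPKM in 23-CATA against 10004 to 11376 FPKM in 23-NC. Fabp4 alone reached 97236 FPKM in the first table, where the highest sum was 102769 FPKM. In the second table it reached 62607 FPKM, where the highest sum was 65412 FPKM. At its highest the sum thus mainly follows Fabp4. In these bulk libraries, fewer cells of a type and less RNA per cell cannot be told apart. Depth, estimated from the smallest steps between low FPKM values, was about 12.3 to 19.2 M fragments in 59 libraries. At the best-scoring depth, 59.8% to 69.7% of the low values used fell on whole fragments, so these depths and the fragment counts drawn from them are rough. The steps were unclear in Tet1-KO day 6 replicate 2. That library also had only 11805 genes above 0 FPKM, against 14797 and 14954 in replicates 1 and 3 of its group.

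Metallothioneins are short, cysteine-rich proteins that bind zinc and copper and also take up cadmium. Their genes are switched on by MTF1, a zinc-finger factor that senses free zinc and binds short metal response elements in promoters, and by glucocorticoids such as the dexamethasone of the induction mix. Slc30a1 encodes ZnT1, the transporter that moves zinc out of the cell, and is itself a target of MTF1. Mt1 and Mt2 are the broadly expressed members of the family, while Mt3 and Mt4 are known mainly from brain and from stratified epithelium.

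Mt2 (chr8:94172664-94173568) and Mt1 (chr8:94179082-94180327) lie on the plus strand of mouse chromosome 8, 5513 bp apart, and Mt4 and Mt3 lie just before them (GENCODE M21, mm10). Mtf1 is at chr4:124802104-124849800 and Slc30a1 at chr1:191906767-191913247, both also on the plus strand. The promoter windows of Mt2 and Mt1 are shown because these neighbouring genes parted in Tet1-KO cells and moved together elsewhere. Each runs from 250 bases before to 50 bases after the RefSeq start (GRCm38.p6, plus strand, written 5′ to 3′; chr8:94172368-94172667 for Mt2 and chr8:94178839-94179138 for Mt1). Capitals mark the metal response element core, searched as TGCACNC and TGCGCNC on both strands, so that a core on the minus strand reads as its reverse complement.
Mt2: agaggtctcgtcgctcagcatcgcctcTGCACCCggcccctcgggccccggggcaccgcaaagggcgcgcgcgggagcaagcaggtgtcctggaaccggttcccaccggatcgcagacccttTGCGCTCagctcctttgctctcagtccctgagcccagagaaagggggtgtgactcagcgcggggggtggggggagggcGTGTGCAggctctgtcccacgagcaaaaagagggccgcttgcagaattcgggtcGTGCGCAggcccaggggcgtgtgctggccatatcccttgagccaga
Mt1: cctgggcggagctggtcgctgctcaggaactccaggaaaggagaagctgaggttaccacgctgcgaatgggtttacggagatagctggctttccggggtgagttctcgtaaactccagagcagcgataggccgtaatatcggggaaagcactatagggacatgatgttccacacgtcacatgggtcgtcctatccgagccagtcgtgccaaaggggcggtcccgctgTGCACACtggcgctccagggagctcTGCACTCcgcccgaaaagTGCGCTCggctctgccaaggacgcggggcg
The Mt2 window holds 4 cores, 2 on each strand, whose first letters lie -223, -128, -50 and 5 bases from the start. The Mt1 window holds 3, all on the plus strand, at -23, 3 and 21 bases. These positions and counts hold for the RefSeq starts alone, and cores outside the windows were not counted. The GENCODE start of Mt2, 94172664, lies near the end of its window, 94172667, so another choice of start would shift them. The Slc30a1 window holds 2 and the Mtf1 window 0. Among 32851 promoter windows of the same length, 0.517% hold at least as many cores as Mt2, 1.97% as many as Mt1 and 7.11% as many as Slc30a1, and 25.7% hold at least 1. Mt2 and Mt1 have 24 CpG dinucleotides each, a count that 20% of windows reach and well above the median of 7. Mtf1 has 25 and Slc30a1 36. RefSeq held a window for 4 of the 4 genes, and a match of letters is a description, not a binding site.

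Mt2 was nearly lost in 11 of the 12 Tet1-KO libraries, while Mt1, the next gene along the chromosome, was not. At day 0, Mt2 had 3.62, 5.55 and 3.41 FPKM in Tet1-KO, against 146, 119 and 114 FPKM in WT. At day 2 it had 7.19, 5.42 and 31.8 FPKM in Tet1-KO, against 1316, 811 and 1144 FPKM in WT. At day 4 it had 5.13, 3.14 and 7.83 FPKM in Tet1-KO, against 740.4, 721 and 669 FPKM in WT. No Tet1-KO library of these 3 days reached the WT range, and the group means were 30.1-fold, 73.6-fold and 132-fold lower in Tet1-KO. The day 2 fold rests on the third library, and without it was 173. At day 6, Mt2 had 6.9, 2.05 and 2864 FPKM in Tet1-KO, against 1201, 849 and 1434 FPKM in WT. The third Tet1-KO library thus stood above every WT library, and the other 2 stood far below. Without it the day 6 mean was 4.47 FPKM in Tet1-KO, 259-fold lower than the 1161 FPKM of WT. That mean rests on 2 libraries, and the 6.9 FPKM of replicate 1 alone is 168-fold lower.

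Mt1 in the same libraries stayed within reach of WT. At day 0 it had 325, 308 and 188 FPKM in Tet1-KO, against 257, 215 and 215 FPKM in WT, overlapping ranges. At day 2 it had 1126, 1034 and 1327 FPKM in Tet1-KO, against 2546, 1664 and 2184 FPKM in WT, a mean 1.83-fold lower in Tet1-KO with no overlap. At day 4 it had 1419.9, 628 and 1497 FPKM in Tet1-KO, against 1831, 1759.8 and 1571 FPKM in WT, a mean 1.46-fold lower. At day 6 it had 626, 607 and 3797 FPKM in Tet1-KO, against 1773, 1567 and 2014 FPKM in WT. The third library again carried the highest value, and without it the Tet1-KO mean was 617 ± 13.4 FPKM (SD, n = 2), 2.89-fold below the WT mean of 1785 FPKM. On the log2(FPKM + 1) scale, after subtracting the median difference over all genes, Tet1-KO minus WT for Mt1 was 0.31, -1.02, -0.73 and -0.46 at days 0, 2, 4 and 6, and for Mt2 -4.54, -6.64, -6.96 and -4.60. Under quantile normalisation the day 0 value of Mt1 turned to -0.07 and the day 2 value was -0.45.

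**Figure D1:**
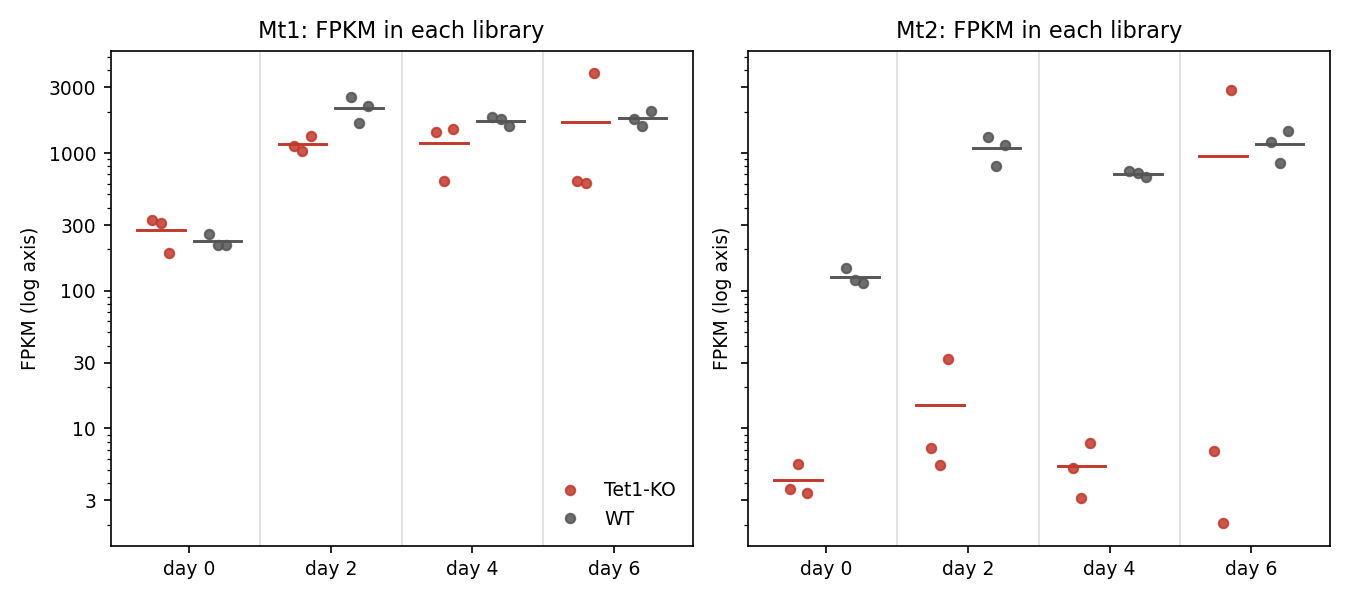
FPKM of Mt1 (left) and Mt2 (right) in each library by day, Tet1-KO in red and WT in grey, on a log axis; points are libraries and bars are group means (n = 3). Mt2 lies between 2.05 and 31.8 FPKM in 11 Tet1-KO libraries and at 2864 FPKM in the third library of day 6, while Mt1 of the 2 populations stays on one scale.

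The ratio of Mt2 to Mt1 within a library removes the library's own scaling. It was 0.00337 to 0.024 in 11 Tet1-KO libraries, with a median of 0.00638, against 0.404 to 0.712 in the 12 WT libraries, with a median of 0.527. Tet1-KO day 6 replicate 3 had a ratio of 0.754, above every WT library. Across the second table the ratio was 0.681 to 1.05 in 23-Tet1, 0.678 to 0.873 in 23-CATA and 0.66 to 1.23 in 23-NC, so no library outside Tet1-KO came near the low values. The reads behind the low values were few: Mt2 rested on about 15 to 112 fragments in 10 of the 11 low libraries, day 6 replicate 2 being left out for its unclear depth. Shared sequence was limited, since the longest run common to the Mt1 and Mt2 transcripts is 20 bases and none of their 50-base stretches is shared.

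**Figure D2:**
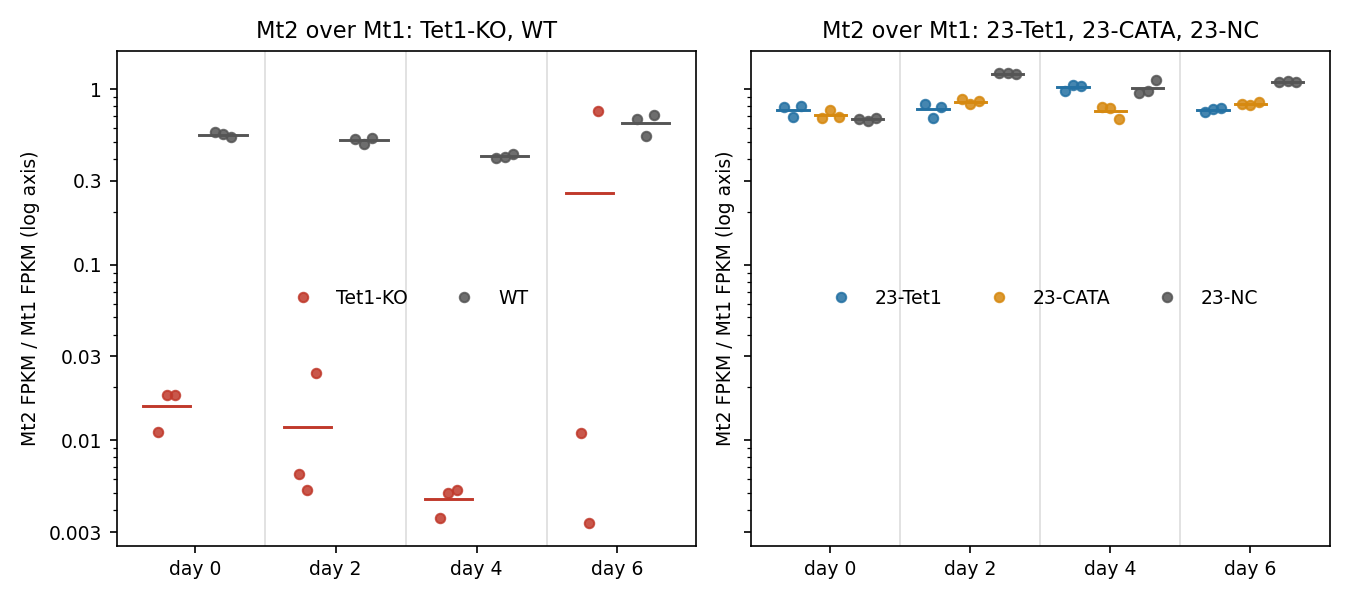
Mt2 FPKM divided by Mt1 FPKM in each library by day on a log axis, with Tet1-KO and WT on the left and 23-Tet1, 23-CATA and 23-NC on the right; bars are group means (n = 3). The 11 low Tet1-KO libraries lie at or below 0.024, and all other libraries, among them Tet1-KO day 6 replicate 3, lie at or above 0.404.

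That library stood apart at other genes as well. Of 10 genes that were low in all 9 Tet1-KO libraries of days 0 to 4 (at least 3-fold below the lowest of the 12 WT libraries, and at 2 FPKM or more in each of those), 6 were at or above the lowest WT library in Tet1-KO day 6 replicate 3 and 0 in replicates 1 and 2. Mt2 was among the 6, with Nid1, a basement-membrane protein, at 22.1 FPKM in replicate 3 against 9.93 FPKM in the lowest WT library, Marcksl1, a membrane-associated actin regulator, at 56.4 against 2.27 FPKM, and Ptgr2, a prostaglandin reductase, at 9.93 against 4.29 FPKM. Gas6, the ligand of the TAM receptor tyrosine kinases, remained low there, at 0.46 FPKM against 4.6 FPKM in the lowest WT library. Lyz2 was at 0.45 FPKM in replicate 3 and 0.65 FPKM in replicate 2, against 30.4 FPKM in replicate 1. Day 6 values of the 4 genes in Tet1-KO are therefore given with and without replicate 3 where it decides them. The day 6 calls of other genes and lists, and the share of all genes called, use all 3 libraries, replicates 2 and 3 among them.

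The neighbours of the cluster described here showed no drop as deep as that of Mt2. They are 6 genes within 250 kb that passed the expression filter: Gnao1, Nudt21, Ogfod1 and Bbs2 before the cluster and Nup93 and Herpud1 after it. The share of genes called in Tet1-KO against WT (limma, adjusted p under 0.05, either direction) was 16.8% at day 0, 22.9% at day 2, 16% at day 4 and 45.4% at day 6 of 11911 tested. Of these 6 genes 0 were called at day 0 and at day 4, and 1 was called at day 2, higher in Tet1-KO: Herpud1, an endoplasmic-reticulum stress protein, by 0.71 ± 0.25 (SE, adjusted p = 0.0151). At day 6 another 2 were lower in Tet1-KO, each in all 3 libraries. They were Ogfod1, a ribosomal prolyl hydroxylase (-0.57 ± 0.12, adjusted p = 0.00011), and Gnao1, a G-protein subunit (-0.53 ± 0.28, adjusted p = 0.0423). Gnao1 had 13.4, 5.27 and 16.9 FPKM in Tet1-KO, against 19.3, 17.1 and 18.6 FPKM in WT. Its lowest value came from replicate 2, the library of unclear depth. Bbs2, a ciliary protein whose gene ends before Mt4, had 8.9, 8.08 and 8.96 FPKM in Tet1-KO against 13.7, 12.7 and 13.3 FPKM in WT at day 0, a difference that did not pass (adjusted p = 0.13). Gnao1 (16.6 against 25 FPKM), Nup93 (21.9 against 28.8 FPKM) and Ogfod1 (5.05 against 6.57 FPKM) had lower day 0 means too. All their Tet1-KO libraries lay below every WT library. Herpud1 went the other way without overlap at day 0 (53.2 against 37.4 FPKM), and Nudt21 overlapped. Ogfod1 was again lower without overlap at day 4 (4.47 against 5.09 FPKM), and Bbs2 was higher without overlap at day 2 (7.18 against 5.07 FPKM). Mir138-2 and Slc12a3 did not pass the filter.

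**Figure D3:**
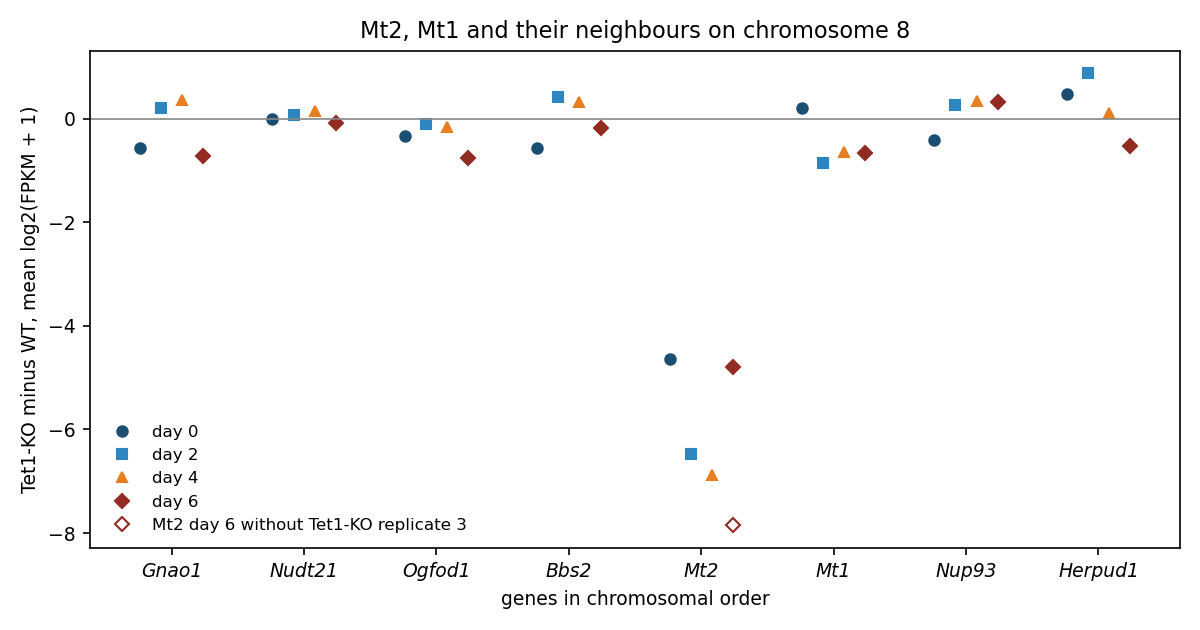
Difference of mean log2(FPKM + 1), Tet1-KO minus WT, for genes around Mt2 and Mt1 in chromosomal order, 1 symbol per day; the open symbol is Mt2 at day 6 without Tet1-KO replicate 3. Mt2 lies between -4.63 and -7.85, and every other gene shown lies between -0.86 and 0.88.

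Over differentiation, Mt1 rose in WT cells within 2 days and stayed high. Its group means in WT were 229, 2131, 1720.4 and 1785 FPKM at days 0, 2, 4 and 6. Relative to the median of all genes, the changes of day 2, 4 and 6 against day 0 were 3.59 ± 0.48, 3.42 ± 0.48 and 3.24 ± 0.48 on the log2 scale (SE; limma, adjusted p = 1.23e-05, 2.69e-05 and 3.84e-05). The median itself had shifted by -0.39, -0.52 and -0.29, and across all comparisons made it shifted by between -0.52 and 0.17, so changes of all genes are given relative to it. The adjusted p-values are those of the changes before this subtraction. Such changes are common in this time course, since 62.1%, 67.3% and 56.6% of genes tested were called at days 2, 4 and 6 against day 0, and 17.4% between days 4 and 2. Day 4 did not differ detectably from day 2 for Mt1 (-0.19 ± 0.48, adjusted p = 0.76).

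Mt2 in WT ran in parallel, with means of 126, 1090.5, 710.0 and 1161 FPKM at days 0, 2, 4 and 6. The WT libraries of days 2, 4 and 6 all lay above those of day 0, with changes of 3.47, 3.00 and 3.45 on the log2 scale. In the fit over all 24 libraries these did not pass (SE 1.46; adjusted p = 0.0732, 0.138 and 0.071). Without Tet1-KO day 6 replicate 3, whose Mt2 value enters the spread shared by all groups, the day 2 change was called at adjusted p = 1.11e-05, and a fit on the 2 groups alone gave adjusted p = 2.3e-07. Mt1 and Mt2 of the 12 WT libraries had a correlation of 0.983.

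Mt1 also rose in Tet1-KO cells. Its means were 274, 1163, 1182 and 1677 FPKM at days 0, 2, 4 and 6, with changes against day 0 of 2.22 ± 0.48, 2.34 ± 0.48 and 2.47 ± 0.48 (adjusted p = 0.00379, 0.00182 and 0.00238). The shares of all genes called in Tet1-KO were 22.5%, 46.8% and 45.6% at days 2, 4 and 6 against day 0. The day 6 call was lost when the 2 groups were fitted alone. Mt2 in Tet1-KO was not called on any day (1.33, 0.54 and 3.39, SE 1.46, adjusted p = 0.596, 0.908 and 0.0965), and its ranges overlapped those of day 0. Its day 6 change rested on replicate 3: it was 0.41 without that library (adjusted p = 0.933), and was called at 4.68 without replicate 1 and at 5.06 without replicate 2 (adjusted p = 0.0314 and 0.00838). The day 6 change of Mt1 was 1.67 without replicate 3 (adjusted p = 0.00409). The summed adipocyte markers of Tet1-KO at day 2 were 8124, 47331 and 10315 FPKM, against 53530 FPKM, 63139 FPKM and 48398 FPKM in WT, lower in all 3 Tet1-KO libraries; their part in the lower day 2 level of Mt1 was not tested.

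In 23-NC both metallothioneins were high from the start and rose further. Mt1 had 6020, 5118 and 5413 FPKM at day 2, against 1268, 868 and 877 FPKM at day 0. Mt2 had 7417, 6295 and 6576 FPKM at day 2, against 860.25, 573 and 601 FPKM at day 0. The day 2 libraries lay far above those of day 0 for both genes, with changes of 2.54 ± 0.12 for Mt1 (adjusted p = 4.53e-17) and 3.40 ± 0.12 for Mt2 (adjusted p = 7.12e-20). At days 4 and 6 the changes against day 0 were 2.51 ± 0.12 and 2.49 ± 0.12 for Mt1, and 3.10 ± 0.12 and 3.20 ± 0.12 for Mt2. In 23-NC 59.5%, 72.4% and 72.2% of 12231 genes tested were called at days 2, 4 and 6 against day 0, and 54.3% between days 4 and 2. Levels of the 2 tables are not compared by a test, since each table was processed apart.

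23-Tet1 held less of both metallothioneins than 23-NC on every day. At day 0, Mt1 had 334, 353 and 330 FPKM and Mt2 had 263, 244 and 264 FPKM in 23-Tet1, all below every 23-NC library. At day 2, Mt1 had 1104, 1184 and 1102 FPKM in 23-Tet1, against 6020, 5118 and 5413 FPKM in 23-NC. Mt2 at day 2 had 913, 806 and 871 FPKM in 23-Tet1, against 7417, 6295 and 6576 FPKM in 23-NC. The differences were widest on that day, -2.38 ± 0.12 for Mt1 (adjusted p = 4.34e-16) and -3.06 ± 0.12 for Mt2 (adjusted p = 2.19e-18). For Mt1 they were -1.64, -1.34 and -0.73 and for Mt2 -1.47, -1.33 and -1.26 at days 0, 4 and 6, and all passed with no overlap of ranges. Under quantile normalisation the day 6 difference of Mt1 turned to 0.12 (adjusted p = 0.208). Background shares of genes called in 23-Tet1 against 23-NC were 61.3%, 63.9%, 56.9% and 65% at days 0, 2, 4 and 6.

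Within 23-Tet1 the rise was not complete by day 2. Mt1 means were 339, 1129.8, 2227 and 3290.1 FPKM and Mt2 means 257, 864, 2280.5 and 2509 FPKM at days 0, 2, 4 and 6. Between days 2 and 4 Mt1 rose by 1.00 ± 0.12 and Mt2 by 1.41 ± 0.12 (adjusted p = 7.45e-08 and 1.19e-10), while in 23-NC over the same days Mt1 had -0.03 ± 0.12 (adjusted p = 0.689) and Mt2 fell by 0.30 (adjusted p = 0.0224), a call that was lost when the 2 groups were fitted alone and without 23-NC day 2 replicate 1, day 4 replicate 1 or day 4 replicate 2. The day 2 response of Mt2 was smaller in 23-Tet1 than in 23-NC by -1.59 ± 0.18 (adjusted p = 7.66e-09) and that of Mt1 by -0.74 ± 0.17 (adjusted p = 0.000494). By day 6 the response of Mt1 was larger in 23-Tet1, by 0.90 ± 0.17 (adjusted p = 7.14e-05), while that of Mt2 was not shown to differ (0.20 ± 0.18, adjusted p = 0.445). In 23-Tet1, 64.4%, 71.5% and 77.6% of genes were called at days 2, 4 and 6 against day 0 and 48.4% between days 4 and 2, and the difference of response from 23-NC was called for 53.9%, 50.5% and 61.4%.

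23-CATA took another course: both genes rose by day 2, Mt2 by less than in 23-NC, and by day 6 they were near the starting level. At day 0, Mt1 had 1153, 1035 and 1159 FPKM in 23-CATA, against 1268, 868 and 877 FPKM in 23-NC, overlapping and not called (0.06 ± 0.12, adjusted p = 0.255). Without 23-NC day 0 replicate 1, the highest of its group, it was called at 0.23 (adjusted p = 0.00822), and Mt2 at 0.31 (adjusted p = 0.0022). At day 2, Mt1 had 4477, 5066 and 5150.3 FPKM in 23-CATA, overlapping with 23-NC, and was not called (-0.20 ± 0.12, adjusted p = 0.213). Mt2 at day 2 had 3909, 4160 and 4386 FPKM in 23-CATA, below every 23-NC library (-0.73 ± 0.12, adjusted p = 1.33e-05). By day 6, Mt1 had 1033, 1121 and 1054 FPKM in 23-CATA, against 5087, 5508 and 5250.2 FPKM in 23-NC. Mt2 at day 6 had 847, 903 and 893 FPKM in 23-CATA, against 5567, 6129 and 5763 FPKM in 23-NC. These day 6 differences were -2.32 ± 0.12 and -2.74 ± 0.12 (adjusted p = 1.54e-16 and 6.49e-18).

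Against its own day 0, 23-CATA rose by 2.29 ± 0.12 for Mt1 and 2.54 ± 0.12 for Mt2 at day 2, and by 1.83 and 1.89 at day 4. At day 6 the changes were 0.16 ± 0.12 and 0.37 ± 0.12. Before the median was subtracted they were -0.06 and 0.15, and it is these that did not pass (adjusted p = 0.653 and 0.273). The day 6 libraries of Mt2 (847, 903 and 893 FPKM) still lay above every day 0 library (786, 788 and 808 FPKM). The direction for Mt1 at day 6 depended on the scaling, with -0.13 under quantile normalisation, which passed (adjusted p = 0.0202), and -0.03 without the expression filter. Set against 23-Tet1, 23-CATA was higher for Mt1 and Mt2 at day 0 (1.71 and 1.62) and at day 2 (2.17 and 2.32) and lower at day 6 (-1.61 and -1.50), all called, so the populations crossed between days 2 and 6. At day 4, Mt1 was higher by 0.67 ± 0.12 (adjusted p = 0.000436) and Mt2 did not pass (0.22 ± 0.12, adjusted p = 0.707). Under quantile normalisation both turned and passed in the other direction, at -0.19 and -0.57 (adjusted p = 0.00669 and 1.28e-05). The summed adipocyte markers were already 2259 to 2421 FPKM in 23-CATA at day 0, against 42.8 to 50.4 FPKM in 23-NC, and 26723 to 30178 FPKM at day 2, against 2658 to 2849 FPKM in 23-NC; their part in the metallothionein levels was not tested.

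Of all genes tested in 23-CATA, 72.3%, 81.5% and 77% were called at days 2, 4 and 6 against day 0 and 63.2% between days 4 and 2. Against 23-NC 43.3%, 65%, 68.7% and 74.4% were called, and against 23-Tet1 64.2%, 67.4%, 74.2% and 65.7%, at days 0, 2, 4 and 6. The difference of response from 23-NC was called for 50.4%, 58.1% and 63.5% at days 2, 4 and 6. A call alone is therefore common in this table.

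**Figure D4:**
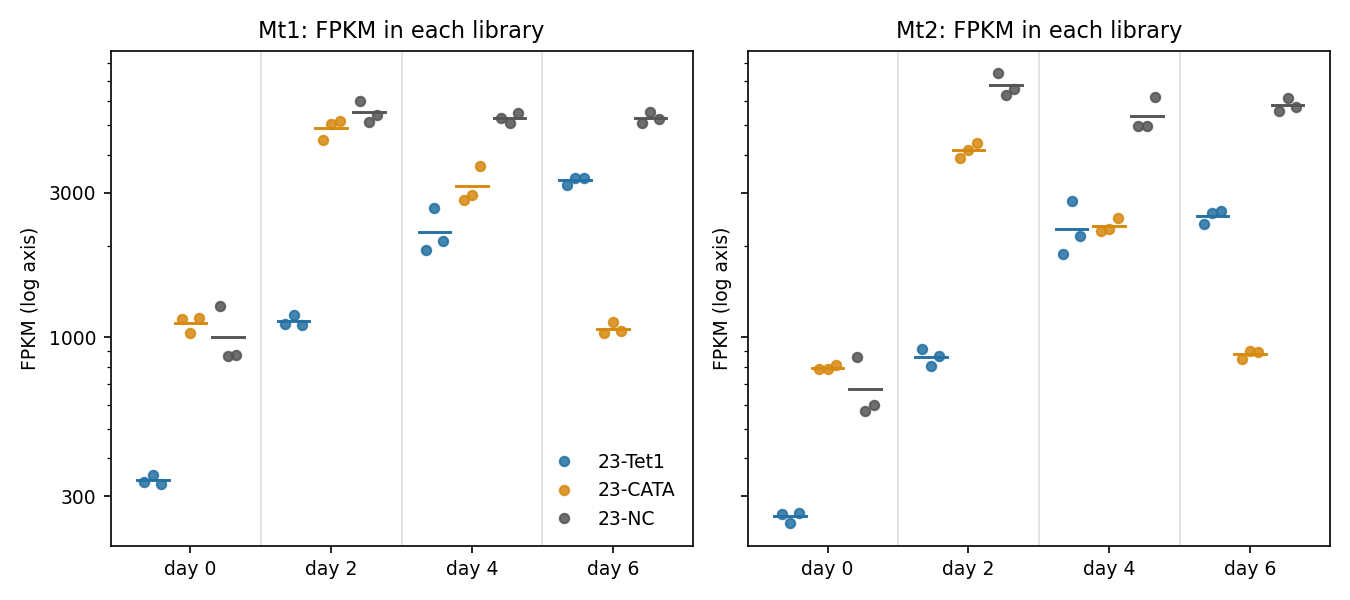
FPKM of Mt1 (left) and Mt2 (right) in each library by day, 23-Tet1 in blue, 23-CATA in orange and 23-NC in grey, on a log axis; points are libraries and bars are group means (n = 3). 23-Tet1 has its highest means at day 6, 23-CATA returns to 847 to 1121 FPKM at day 6, and 23-NC stays at 4961 FPKM or more from day 2 on.

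Ranked by level, Mt1 in the second table was highest in 23-NC at day 2 (5517 FPKM), day 6 (5282 FPKM) and day 4 (5277 FPKM), 3 groups whose ranges overlapped, the third of them also with 23-CATA at day 2, and lowest in 23-Tet1 at day 0 (339 FPKM). Mt2 was highest in the same 3 groups and lowest in the same one. In the first table Mt1 was highest in WT at day 2 and lowest in WT at day 0 (229 FPKM), with Tet1-KO at day 0 overlapping it, and Mt2 was lowest in Tet1-KO at day 0 (4.19 FPKM), overlapping Tet1-KO at days 2 and 4.

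Mtf1, the zinc-sensing factor, was low in both tables. In the first table its group means ran from 1.69 FPKM (Tet1-KO day 6) to 2.44 FPKM (Tet1-KO day 2), each group overlapping the next in order, and Tet1-KO overlapped WT on every day. None of the 6 changes from day 0 in WT or Tet1-KO was called. In the second table its means ran from 2.46 FPKM (23-Tet1 day 0) to 4.26 FPKM (23-Tet1 day 4). Mtf1 had 4.44, 4.11 and 4.24 FPKM in 23-Tet1 at day 4, against 2.42, 2.54 and 2.41 FPKM at day 0, with no overlap and a rise of 0.68 ± 0.10 (adjusted p = 1.87e-06). It had 4.48, 3.83 and 3.92 FPKM in 23-CATA at day 2, against 3.02, 3.34 and 2.57 FPKM in 23-NC, higher by 0.33 ± 0.10 (adjusted p = 0.00185). That is the day on which Mt1 was not called between these populations and Mt2 was lower in 23-CATA.

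Slc30a1, the zinc exporter, moved opposite to the metallothioneins at day 2 in 23-NC, but not at days 4 and 6. It had 2.15, 2.12 and 2.33 FPKM at day 2, against 3.49, 4.17 and 4.51 FPKM at day 0. The day 2 libraries were all lower, by -0.59 ± 0.08 (adjusted p = 1.27e-08), and this group had the lowest mean of the 12 in the table. It fell in 23-Tet1 at day 2 as well, to 4.23, 3.87 and 3.75 FPKM, against 5.86, 6.73 and 6.41 FPKM at day 0 (-0.52 ± 0.08, adjusted p = 1.48e-07). In 23-CATA it had 5.44, 4.89 and 4.87 FPKM at day 2, against the 23-NC mean of 2.2 FPKM, a difference of 0.90 ± 0.08 (adjusted p = 8.9e-12). The response at day 2 differed between 23-CATA and 23-NC by 0.91 ± 0.11 (adjusted p = 1.81e-07). In 23-NC, Slc30a1 was above day 0 at days 4 and 6, by 0.28 ± 0.08 and 0.33 ± 0.08 (adjusted p = 0.0272 and 0.00332). Mt1 and Mt2 were above day 0 on those days as well. Against its own day 0, 23-CATA had more Slc30a1 at day 2 (0.33 ± 0.08, adjusted p = 0.0407), when its Mt1 and Mt2 were also higher.

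Slc30a1 was also higher in 23-Tet1 than in 23-NC at day 0 (0.44 ± 0.08, adjusted p = 4.27e-07) and day 2 (0.53 ± 0.08, adjusted p = 2.6e-08), the 2 days on which it was not called between them being days 4 and 6. So on day 2 the populations with less Mt2 than 23-NC had more Slc30a1. At day 4 (-0.12 ± 0.08, adjusted p = 0.0162) and day 6 (-0.34 ± 0.08, adjusted p = 0.000353) Slc30a1 was lower in 23-CATA than in 23-NC, in the same direction as Mt1 and Mt2. In the first table Tet1-KO had 3.13, 3.32 and 1.98 FPKM at day 6, against 4.57, 4.83 and 4.57 FPKM in WT, the 1 day without overlap, with a mean of 3.22 FPKM without replicate 3. Slc30a1 in Tet1-KO was called at days 4 and 6 against day 0, but relative to the median of all genes the changes were -0.11 ± 0.15 and -0.15 ± 0.15, and each turned when 1 library was left out (0.01 without day 0 replicate 2, and 0.10 without day 6 replicate 3).

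**Figure D5:**
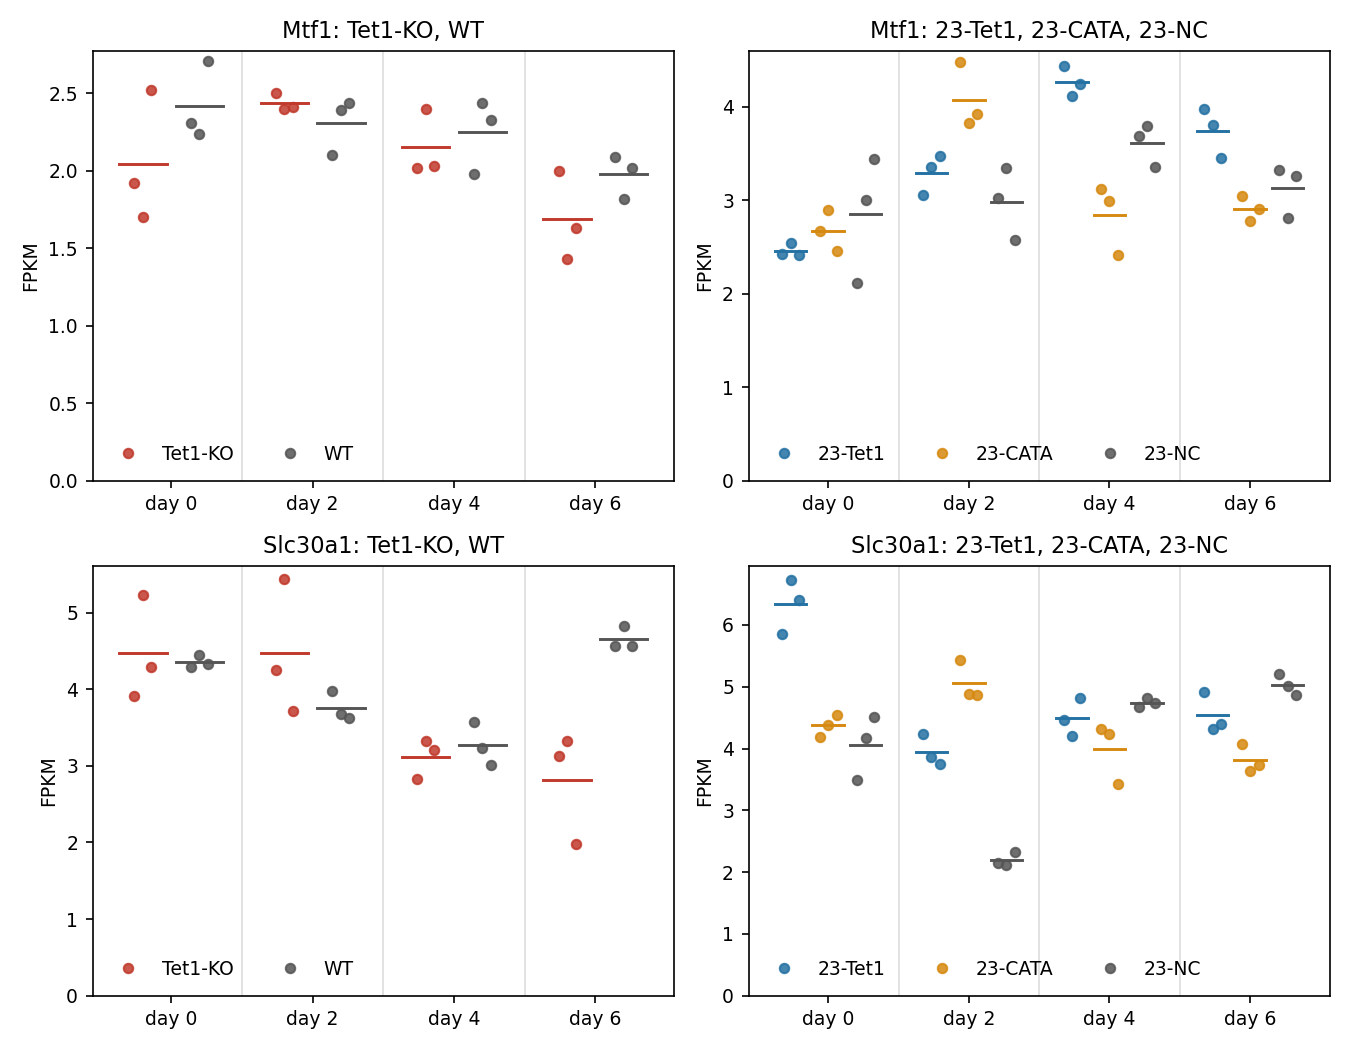
FPKM of Mtf1 (top) and Slc30a1 (bottom) in each library by day, with Tet1-KO and WT on the left and 23-Tet1, 23-CATA and 23-NC on the right; points are libraries and bars are group means (n = 3). Mtf1 stays between 1.43 and 4.48 FPKM, and at day 2 mean Slc30a1 is 5.07 FPKM in 23-CATA and 2.2 FPKM in 23-NC.

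The other metallothioneins added little. Mt3 stayed at 0.83 FPKM or less in every library. Mt4 appeared only in the second table above 1 FPKM: it had 6.58, 2.96 and 5.96 FPKM in 23-NC at day 2, against 0 in all 3 libraries of day 0 (change 2.64 ± 0.26 on the log2(FPKM + 1) scale, adjusted p = 1.02e-09). At day 2 it had 1.94, 1.94 and 2.5 FPKM in 23-CATA and was listed at 0 in all 3 libraries of 23-Tet1. In 23-NC it had 0, 0.86 and 0 FPKM at day 4 and 1.69, 2.69 and 4.54 FPKM at day 6, so it did not stay up as Mt1 and Mt2 did. The Mt4 transcript shares at most 18 bases in a run with Mt2 and 11 with Mt1. It is short, 398 bases, and the fragments behind these low values were not counted. The SE of Mt4 comes from a spread shared with groups at 0 FPKM in every library, so its p-value may overstate the certainty.

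Among the other zinc transporters Slc39a14 rose with the metallothioneins in 23-NC. Of 14 importers of the Slc39 (ZIP) family, 9 passed the filter. In 23-NC at day 2 against day 0, 1 rose and 6 fell, with a median of -0.21. Of all genes tested, 59.5% were called there. The one that rose was Slc39a14, ZIP14, which carries zinc and iron into the cell: 109 ± 3.48 FPKM at day 2 and 15.4 ± 1.78 FPKM at day 0 (SD, n = 3 each), a change of 2.82 ± 0.08 (adjusted p = 2.49e-22). Like Mt2, Slc39a14 was lower in 23-Tet1 than in 23-NC at day 2 (38.4 against 109 FPKM, -1.57 ± 0.08, adjusted p = 1.36e-15). It was lower in 23-CATA than in 23-NC at day 2 (53.0 FPKM, -1.05 ± 0.08, adjusted p = 4.2e-12) and at day 6 (8.79 ± 0.675 FPKM in 23-CATA against 95.9 ± 4.92 FPKM in 23-NC, -3.32 ± 0.08, adjusted p = 2.08e-24).

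In WT 0 importers rose and 6 fell at day 2, with a median of -0.42, where 62.1% of all genes tested were called. Slc39a14, which rose in 23-NC, had 8.05, 6.49 and 9.73 FPKM at day 2 in WT, against 15.2, 16.0 and 17.3 FPKM at day 0. Among the falls were those of Slc39a6, ZIP6 (5.76 ± 1.29 FPKM at day 2 and 19.4 ± 0.478 FPKM at day 0), and Slc39a10, ZIP10 (0.827 ± 0.142 and 4.35 ± 0.386 FPKM). In Tet1-KO against WT, Slc39a6 was higher by 1.13 ± 0.29, 1.12 ± 0.29 and 1.46 ± 0.29 at days 2, 4 and 6, with 16.6 ± 3.24 FPKM in Tet1-KO and 6.27 ± 0.611 FPKM in WT at day 6. Of the 9 importers tested in Tet1-KO against WT, 1 was lower on day 0. On day 2 the only calls were 2 higher ones, and on day 4 the only call was 1 higher one. Day 6 had 4 lower and 2 higher ones. The share of all genes called in Tet1-KO against WT was 16.8%, 22.9%, 16% and 45.4% at days 0, 2, 4 and 6.

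Of 9 further exporters of the Slc30 (ZnT) family, 5 passed. Slc30a9 rose in WT at day 2 (30.9 ± 0.431 FPKM at day 2 and 22.1 ± 0.445 FPKM at day 0, 0.86 ± 0.12), while Slc30a4, which loads zinc into vesicles, fell (4.96 ± 0.728 and 15.9 ± 0.505 FPKM, -1.12 ± 0.18), as did Slc30a7 of the secretory pathway. In Tet1-KO against WT 0 of the 5 were called at days 0 and 4, 3 were higher at day 2 and 1 was higher at day 6, Slc30a4 on both days (0.52 ± 0.18 and 0.76 ± 0.18). In 23-NC at day 2, 1 rose and 2 fell, and none of these moved by more than 0.34. All genes tested were called at 59.5% there. In Tet1-KO against WT that share was 16.8%, 22.9%, 16% and 45.4% at days 0, 2, 4 and 6.

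Other genes listed as responding to metals through MTF1 or to oxidative stress did not follow Mt2 in Tet1-KO. Of 6 tested (Hmox1, Gclc, Gclm, Txnrd1, Selenow, Pgf), 4 were higher in Tet1-KO than in WT at day 2 and 0 lower. Their median was 1.39. Of all genes tested in Tet1-KO against WT, 22.9% were called at day 2 and 45.4% at day 6. Gclc, the catalytic subunit of the glutathione-making ligase, had 83.5, 11.6 and 66.0 FPKM in Tet1-KO, against 7.31, 5.22 and 9.59 FPKM in WT (2.18 ± 0.53), the second Tet1-KO library lying close to WT, and Hmox1, heme oxygenase, had 360 ± 64.7 FPKM in Tet1-KO and 112 ± 30.6 FPKM in WT (1.53 ± 0.51). At day 6, 2 were higher and 3 lower, Hmox1 among the lower ones (419.9, 60.03 and 664 FPKM in Tet1-KO, against 1191, 1309 and 1328 FPKM in WT). These day 6 counts were not repeated without replicate 3. Pgf had 0.8, 0.78 and 8.71 FPKM in Tet1-KO at day 6, against 0.56, 0 and 0.21 FPKM in WT, its one high value coming from replicate 3. In 23-NC at day 2 Gclc rose to 96.5 ± 4.39 FPKM, against 15.3 ± 1.6 FPKM at day 0 (2.65 ± 0.12, adjusted p = 2.03e-17), and it was lower in 23-Tet1 (13.5 ± 0.805 FPKM, -2.84 ± 0.12) and in 23-CATA (52.1 ± 1.46 FPKM, -0.90 ± 0.12) than in 23-NC on that day. The rest of the list did not share this pattern. Mean FPKM in 23-NC at days 2 and 0 were 126 and 107 for Hmox1, 183 and 150 for Selenow, and 18 and 17.7 for Gclm. They were 44.9 and 61.6 for Txnrd1, and 1.18 and 4.02 for Pgf. Hmox1 at day 2 was higher in 23-Tet1 (329 FPKM) and 23-CATA (144 FPKM) than in 23-NC.

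Glucocorticoid-responsive genes were listed because the induction mix held dexamethasone. Of 9 tested, 8 rose in 23-NC at day 2 and 0 fell (median 2.29), led by Fkbp5, the glucocorticoid-receptor co-chaperone, at 396 ± 3.13 FPKM against 3.0 ± 0.273 FPKM at day 0 (6.70 ± 0.06). In 23-CATA against 23-NC at day 6, 0 were higher and 8 lower (median -1.61), with Fkbp5 at 11.2 ± 0.351 FPKM in 23-CATA and 315 ± 9.8 FPKM in 23-NC. In 23-Tet1 against 23-NC at day 2, 4 were higher and 5 lower, with Fkbp5 (-1.48 ± 0.06) and Errfi1, a feedback inhibitor of EGF-receptor signalling (-1.36 ± 0.06), among the lower ones. In WT at day 2, 4 rose and 2 fell. Of all genes tested, 59.5% were called in 23-NC at day 2 and 62.1% in WT at day 2. The share was 74.4% in 23-CATA against 23-NC at day 6 and 63.9% in 23-Tet1 against 23-NC at day 2. In Tet1-KO against WT, 1 of the 9 was called and higher on day 0. Day 2 had 1 higher and 1 lower call with a median of 0.23. Day 4 had 3 lower calls, and day 6 had 1 higher and 5 lower calls. Over all genes, 16.8%, 22.9%, 16% and 45.4% were called in Tet1-KO against WT at days 0, 2, 4 and 6. Fkbp5 was lower in Tet1-KO at days 2, 4 and 6 (-2.55 ± 0.28, -2.51 ± 0.28 and -1.85 ± 0.28), while Sgk1, a kinase, was higher at day 0 (1.65 ± 0.33) and day 6 (1.08 ± 0.33). At day 2 Errfi1 had 82.2, 25.4 and 59.1 FPKM in Tet1-KO, against 20.8, 13.8 and 27.2 FPKM in WT, overlapping ranges. Tsc22d3, a leucine-zipper protein, averaged 59.7 FPKM in Tet1-KO and 58.7 FPKM in WT. Fkbp5 in Tet1-KO still averaged 27.6 ± 3.75 FPKM at day 2, against 148 ± 6.76 FPKM in WT.

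Copper genes, listed because metallothioneins also bind copper, showed no common direction. Of 7 tested, 2 rose and 3 fell in WT at day 2, where Cox17, the copper chaperone of cytochrome oxidase, had 791 ± 73.6 FPKM against 147 ± 23.6 FPKM at day 0, and Atp7a, the copper-exporting ATPase, had 1.74 ± 0.373 FPKM against 7.16 ± 0.165 FPKM. The share of all genes called in WT at day 2 was 62.1%. In Tet1-KO against WT, Steap4, a metalloreductase, was lower at day 0 (-2.08 ± 0.61) and day 4 (-2.59 ± 0.61).

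The genes whose level across libraries was most like that of Mt2 differed between the tables. Over the 36 libraries of the second table the nearest of 10162 genes was Mt1, with a Pearson correlation of 0.989 on the log2(FPKM + 1) scale, followed by Gramd3 (0.952), Dpep1, a membrane dipeptidase (0.947), Ctla2a (0.945) and Atg7, an autophagy enzyme (0.938). Slc30a1 had -0.350 and Mtf1 0.473. Over the 24 libraries of the first table Mt1 was only number 549 of 9602 genes, with 0.580, and the nearest genes were Ptgr2 (0.954), Fam117a (0.949), Lamb1, a laminin chain (0.937), Coa3, a cytochrome oxidase assembly factor (0.936), and Capn1, a calpain protease (0.935). The first-table ranking contains the Tet1-KO against WT difference of Mt2 on which the group was selected. The rank of Mt1 and the nearest genes there therefore restate that choice in part. Within WT alone Mt1 had 0.983. Within Tet1-KO alone it had 0.699, and 0.517 without day 6 replicate 3. These correlations are descriptions over libraries that share population and day, and no p is given.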

How the data were processed

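Libraries were made with the Illumina TruSeq RNA kit, per the labels. STAR 2.4.1a, RSEM and the mm10 build are named in the submitters' processing notes. The authors deposited FPKM per gene, to 2 decimals, in 2 tables. Strand handling and any scaling between tables are not given in the sources used here, so tests were made within each table. The 4 genes and all lists were chosen with earlier results of these data known. Values were taken as log2(FPKM + 1), and a gene was kept if 3 or more libraries reached 1 FPKM. limma 3.58.1 in R 4.3.3 (lmFit, eBayes with trend) was fitted to all groups of a table, with Benjamini-Hochberg adjustment over all genes tested. From each change the median over the tested genes was subtracted, while adjusted p-values come from the unshifted fit. The fit was tested on simulated data. Read counts were not used, and depth was estimated from steps between low values. From each list up to 3 genes per direction were named, those with the largest change among called genes whose groups did not overlap, and fewer are printed. Nearest genes are the 5 with the highest Pearson correlation with Mt2, among genes averaging 5 FPKM in some group. Replicate numbers come from the titles and pair nothing by themselves. No column of the tables was left out. A result for 1 gene near the cluster is not reported here.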

Additional observations from a re-analysis of the deposited data

Results flagged for a closer look

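In 16 cases, the change from day 0 of 1 of the 4 genes differed between 23-Tet1 or 23-CATA and 23-NC by a test of the difference itself (limma, adjusted p under 0.05); between 50.4% and 63.5% of all genes tested met the same test. Each of the 4 genes was tested at days 2, 4 and 6 in both populations. With calls this common over all genes, the count is not a result about these 4 genes. For 23-Tet1 minus 23-NC, the day 2 responses differed by -0.74 for Mt1 and -1.59 for Mt2. The day 4 responses differed by 0.37 for Mtf1 and -0.57 for Slc30a1. The day 6 responses differed by 0.90 for Mt1, 0.38 for Mtf1 and -0.62 for Slc30a1. For 23-CATA minus 23-NC, the day 2 responses differed by -0.87 for Mt2, 0.49 for Mtf1 and 0.91 for Slc30a1. The day 4 responses differed by -0.74 for Mt1, -1.25 for Mt2 and -0.11 for Slc30a1, the last of which changed sign with the scaling. The day 6 responses differed by -2.38 for Mt1, -2.88 for Mt2 and -0.32 for Slc30a1.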

How the results depend on the processing

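The 122 results of the 4 genes were recomputed 929 times under other settings, and 847 of these values counted as unchanged. Tested results counted so if they kept their direction and their side of the threshold. Tet1-KO minus WT, which was not tested, counted so if it kept its direction and moved by less than the pooled SD of the compared groups. That SD was wide for Mt2 at day 6, which ranged from -7.57 to -2.91 when 1 library was left out. Leaving out 1 library at a time gave 852 values, of which 797 counted as unchanged. The WT day 2 change of Mt2 was called, at 3.47, without Tet1-KO day 6 replicate 3, without replicate 2, without both and in a fit of the compared groups alone, at 3.56 with median-ratio scaling and at 3.59 with library weights. The fits without replicate 3 and without both were chosen after seeing the data. Under quantile normalisation, Tet1-KO minus WT of Mt1 was -0.07 at day 0 and -0.45 at day 2, and that of Mt2 was -5.20 at day 0 and -6.48 at day 4. Quantile normalisation also turned Mt1 in 23-Tet1 against 23-NC at day 6 (0.12) and in 23-CATA against 23-NC at day 2 (0.18), in 23-CATA against 23-Tet1 at day 4 (-0.19; Mt2 -0.57), in 23-CATA at day 6 against day 0 (-0.13; -0.03 without the filter), and between days 4 and 2 in WT (0.17) and 23-NC (0.10). For Slc30a1 it turned Tet1-KO at days 4 and 6 against day 0 (0.10 and 0.01) and the day 4 response of 23-CATA (0.04; 0.02 with library weights), and without Tet1-KO day 6 replicate 3 the day 6 value was 0.10. With library weights, 23-CATA against 23-NC was called for Mt1 at day 0 (0.25) and day 2 (-0.21) and for Mt2 at day 0 (0.34), and the day 4 response of Mt2 in 23-Tet1 turned to -0.04. The causes were not tested.

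Over the fits that each left out 1 library, 23-CATA against 23-NC at day 0 ranged from -0.03 to 0.23 for Mt1 and from 0.04 to 0.31 for Mt2, the highest values being called without 23-NC day 0 replicate 1. Tet1-KO minus WT of Mt1 at day 6 ranged from -1.24 to 0.06, Mt1 in 23-NC between days 4 and 2 from -0.08 to 0.04, and the day 4 response of Mt2 in 23-Tet1 from -0.03 to 0.28. Slc30a1 in Tet1-KO ranged from -0.20 to 0.01 at day 4 and from -0.45 to 0.10 at day 6. With 3 libraries a group, and changes of Mtf1 and Slc30a1 at 1.43 to 6.73 FPKM, small differences of these 2 genes are not settled. Same-numbered replicates deviated together (every correlation above 0.1) in 3 of 36 comparisons, so the numbers were not taken as pairs, and a replicate block changed 0 calls; with it the WT day 2 change of Mt1 remained 3.59.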
